A study of Mus musculus with 17 samples.

Results

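The 10 samples described here are extensor digitorum longus (EDL) muscles of mice that received an empty vector, the control arm of a study of Hand2, a transcription factor of sympathetic neurons, in aged mice. They were chosen by their titles, which begin with EV-, and they make up 10 of the 17 samples of the series. There were 5 females, EV-F7 to EV-F11, and 5 males, EV-M7 to EV-M11, and the numbers in the titles name the animals. EV-F10, EV-F11 and EV-M9 were 22 months old and the other 7 were 23 months old, so EV-F7, EV-F8 and EV-F9 were the 23-month females. All 10 animals carried the empty vector. The labels used here name no backbone, route, dose, interval, strain or time of day of collection, and they describe no sample as free of vector, so anything the vector itself did cannot be told apart from the baseline of the muscle. Libraries were made from total RNA with an Illumina TruSeq v2 kit, and each library was treated as 1 animal. The p-values below therefore set a difference against the spread between animals within the groups compared.

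The EDL is a fast muscle of the lower leg. Its fibres contract quickly through fast isoforms of myosin, troponin and the calcium pump of the sarcoplasmic reticulum, and they draw much of their energy from creatine phosphate and glycogen. Slow fibres, which carry other isoforms of the same proteins and more mitochondria, are few in the EDL of mice. A whole muscle also holds blood, vessels, nerve, connective tissue, fat and immune cells, and its fibres answer hormones, feeding, contraction and cytokines through sets of genes that can change quickly.

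The 10 libraries held 22296800 (EV-F11) to 30942818 (EV-F7) estimated counts, with a mean of 26610484 ± 2717081 (SD, n = 10), and levels are given as CPM, a count relative to the size of its library. A count of 3 was worth 0.0964 to 0.139 CPM. The table has 36172 rows, of which 16740 were at 0 in all 10 animals, and 0 rows were on the mitochondrial chromosome, so shares of the library below leave mitochondrial transcripts out. No library repeated another: the closest pair, EV-M7 and EV-M11, had a chi-square of 14.99 averaged over genes, where sampling noise alone gives about 1. EV-F9 stood apart by its interferon-induced genes and EV-F7 and EV-F8 by immediate-early and stress genes. For several lists that rest on these animals, counts of variable members are given with and without them. Xist stood at 120 to 135 CPM in the 5 females and at most 0.363 CPM in the 5 males, and Ddx3y at 93.5 to 113 CPM in the males and at most 0.0858 CPM in the females, so all 10 libraries matched the labelled sex.

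The library was dominated by the contractile and energy machinery of fast fibres. The 10 genes with most counts held 12.9 ± 0.470% of each library (12.1 to 13.6%), the first 100 held 34.5 ± 0.729%, and 363 ± 20.9 genes held 50% of the counts (336 in EV-F11 to 401 in EV-M10). Protein-coding genes held 98.9 ± 0.1002% of the counts, and each animal had 12059 ± 85.1 genes at 1 CPM or more. All 7 defining markers of fast skeletal muscle, Acta1, Ckm, Myh4, Myh1, Mylpf, Tnnt3 and Pvalb, were among the 25 genes with most counts, as the labelled tissue requires.

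Atp2a1, the fast calcium pump, held the largest share at 2.76% of the counts, with 24596 CPM in EV-M9 as the lowest animal and 31465 CPM in EV-F8 as the highest (27592 ± 1855 CPM, SD, n = 10). Myh4, the myosin heavy chain of the fastest fibres (type IIB), followed with 2.54% and ranged from 18975 CPM in EV-M9 through a median of 26622 CPM to 29817 CPM in EV-M7. Skeletal actin Acta1 held 1.41% and ranged from 12244 CPM (EV-M10) to 17446 CPM (EV-F11). Ckm, the muscle creatine kinase, was among the steadiest of the abundant genes, at 11007 ± 501 CPM with a coefficient of variation (CV, SD over mean) of 0.0455. The next places were taken by Aldoa (an enzyme of glycolysis), Tnnt3 (fast troponin T), Myh1 (myosin of type IIX fibres), the giant scaffold protein Ttn and the fast Z-disc actinin Actn3.

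**Figure D1:**
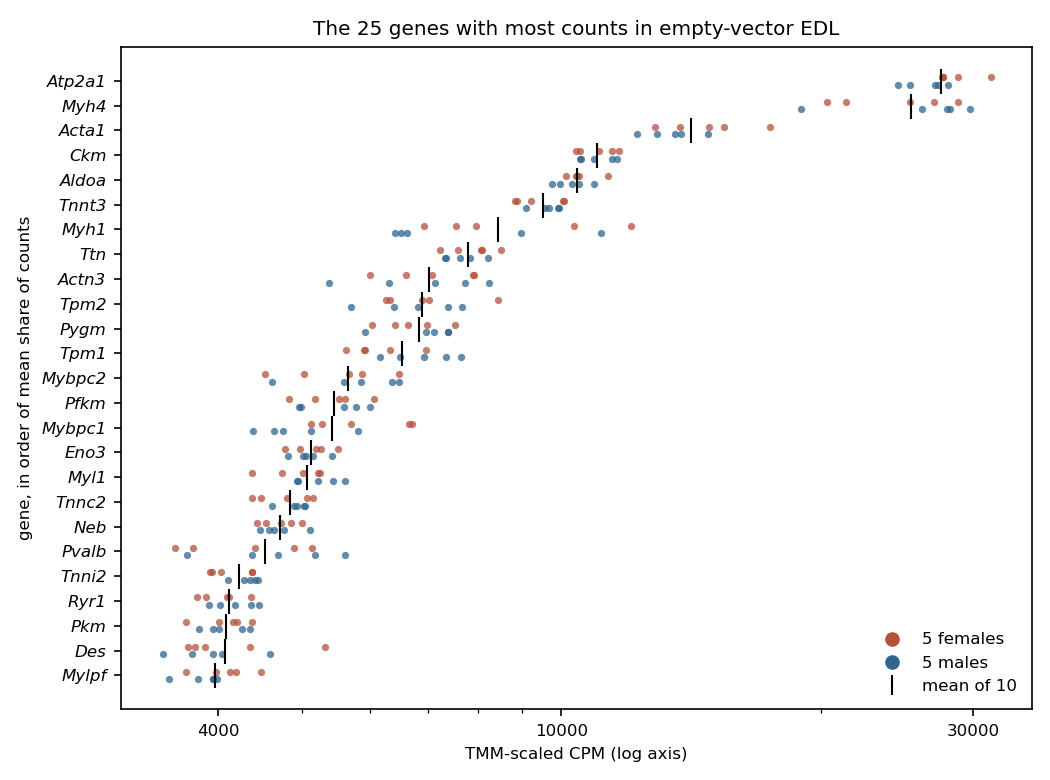
The 25 genes with the largest mean share of counts, in order from top to bottom, with CPM scaled by the trimmed mean of M-values (TMM) on a log axis; each point is 1 animal (5 females, 5 males) and the bar is the mean of 10. Every point of Atp2a1 and Myh4 lies above every point of the other 23 genes, and Myh1 is the most widely spread of the 25, from 6404 to 12033 CPM.

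Counts grow with transcript length, so levels of different genes were compared per kilobase of exon. On that scale Acta1 came first at 9785 CPM per kb, followed by Tnnt3 at 8168, Atp2a1 at 7935, fast troponin C (Tnnc2) at 6915 and Aldoa at 5711 CPM per kb. Myh4 dropped to the ninth place at 4225 CPM per kb, and Ttn, whose transcript is the longest of the set, to place 936. The thin-filament genes Acta1, Tnnt3 and Tnnc2 thus stood ahead of the thick-filament genes Mylpf (4835), Myh4 and Myl1 (3438 CPM per kb). The order did not run by filament throughout, since the tropomyosin Tpm2, also of the thin filament, stood behind all of these (2893 CPM per kb).

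Classes of the sarcomere, calcium handling and glycolysis held the largest shares. Thick-filament genes held 6.57 ± 0.181% of the counts (6.21 to 6.80%), thin-filament genes 5.49 ± 0.259%, and enzymes of glycolysis and glycogen use 5.49 ± 0.199%. Calcium release and uptake held 5.47 ± 0.309% and the Z-disc and giant scaffold 4.45 ± 0.349%. Together these are the proteins that build the sarcomere, trigger it and fuel its short bursts. Nuclear genes of oxidative phosphorylation held 3.65 ± 0.331% (3.34 to 4.31%), the citrate cycle with fatty acid oxidation 2.49 ± 0.271%, and energy buffering with the oxygen store myoglobin 2.43 ± 0.118%. Cytosolic ribosomal proteins held 1.94 ± 0.0935%, translation factors 1.28 ± 0.0381%, chaperones 0.967 ± 0.115% and the proteasome with ubiquitin 0.821 ± 0.0231%. Collagens and other matrix genes held 0.446 ± 0.104%, and globins held 0.115 ± 0.0899%, from 0.0369% to 0.299%. Fast-fibre genes, which overlap the sarcomere classes, held 14.1 ± 0.716% and slow-fibre genes 0.704 ± 0.203% (0.491 to 1.15%).

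**Figure D2:**
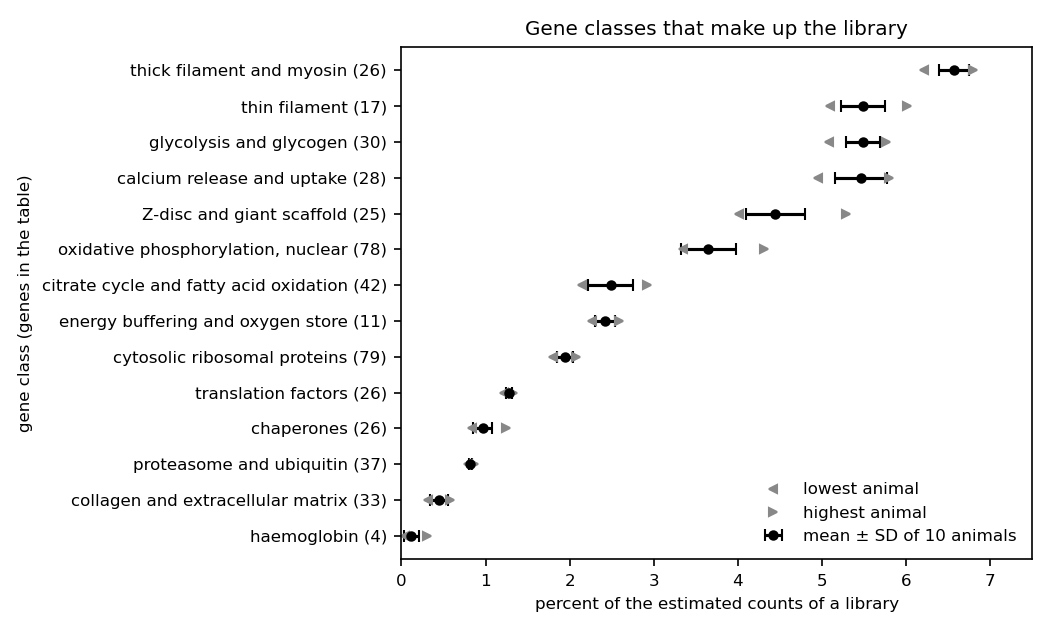
Share of the estimated counts of a library (percent) held by 14 gene classes, with the number of genes of each class in the table in brackets; black points and bars are the mean ± SD of 10 animals and grey triangles the lowest and highest animal. The thick-filament share runs from 6.21% to 6.80% and the globin share from 0.0369% to 0.299%.

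The spread between animals was small for most genes. Over the 12120 genes with a mean of at least 1 CPM the median CV was 0.131, against a median of 0.0429 from counting alone, and 4239 genes (35.0%) had a CV under 0.1. The steadiest gene above 10 CPM was Snapin, a partner of the SNARE fusion machinery, at 115 ± 1.93 CPM (CV 0.0167). Others with a very small CV were Calcoco1, an autophagy receptor (0.0213), the kinase Pak2 (0.0214) and Fkbp1a, which binds the calcium release channel (0.0243). At the other end 467 genes had a CV over 0.5 and 96 a CV over 1.

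Because the CV falls as the level rises, each gene was set against the trend of CV on level, and a gene was called variable when its CV was at least 2 times that trend. This held for 1492 of 12120 genes (12.3%), of which 1457 were protein-coding. Kcnj8 and Gstt2 lay just inside the threshold (2.001 times the trend) and 2310015D24Rik just outside it (1.999 times), so genes near the line do not differ in kind. For 202 of the 1492 the spread rested on 1 animal, meaning that the CV without the highest animal was under 0.5 times the CV with it, and 128 of those rested on EV-F9. EV-F9 was the highest animal for 307 variable genes (20.6%, against 11.9% of all genes) and EV-F8 for 278 (18.6% against 12.7%). EV-F11 was highest for 237, which at 15.9% is near its 15.1% of all genes, and EV-M8 for 47 (3.15% against 7.41%). The CV of females was larger than that of males for 73.5% of variable genes and for 58.1% of all genes, with median CVs over all genes of 0.124 in females and 0.110 in males.

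**Figure D3:**
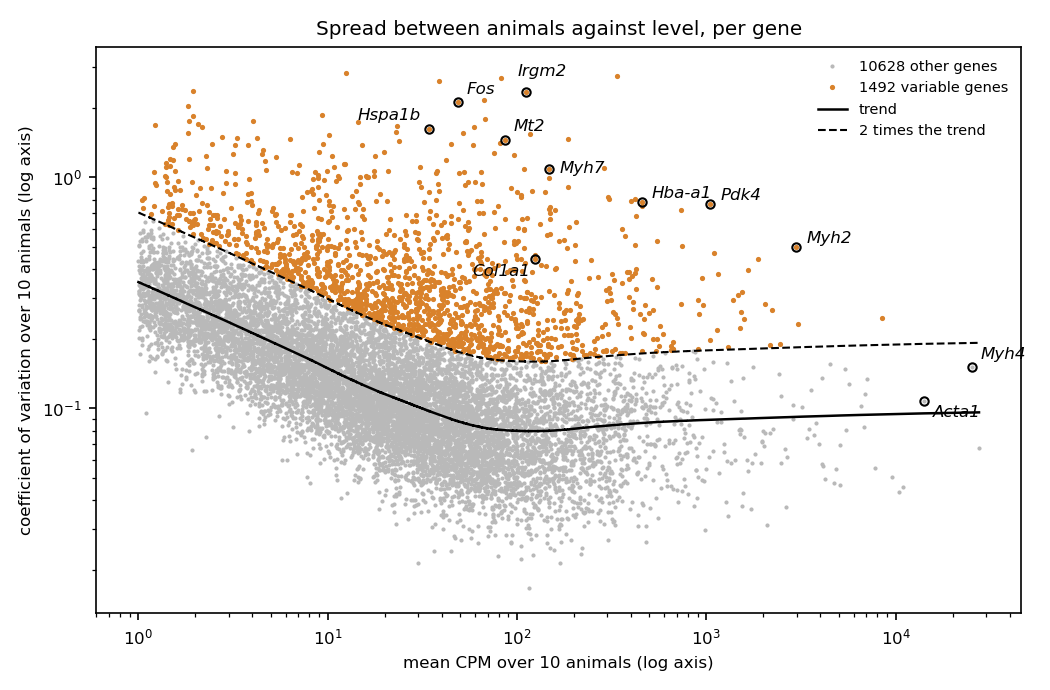
Coefficient of variation over 10 animals against mean CPM for 12120 genes, both axes logarithmic; the solid line is the trend, the dashed line 2 times the trend, and the 1492 variable genes are in orange. Irgm2, Fos, Hspa1b and Mt2 lie far above the line, and Acta1 and Myh4, though far more abundant, lie under it.

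In several lists most members were highest in the same animal, and the lists below are ordered by what they do. Each list was summarised in each animal by a score, the mean over its measured members of log2(CPM + 0.5) relative to that gene's mean over the 10 animals, so a score of 1 is an average level 2 times that of the mean animal. In a bulk library fewer cells of a type and less RNA per cell cannot be told apart. The lists were put together with earlier results of these data known, so counts of variable members describe them and carry no test, and each is to be read against the 12.3% of all genes called variable.

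**Figure D4:**
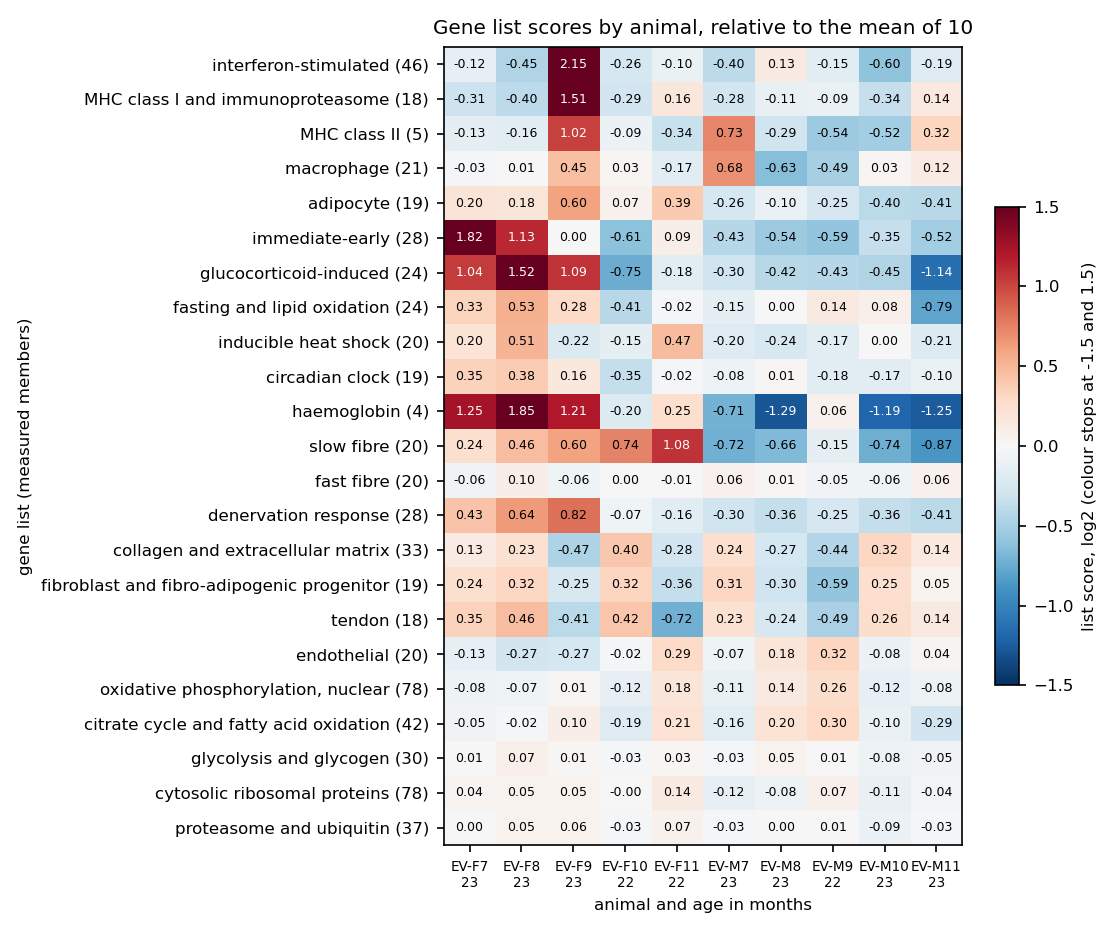
Scores (log2) of 23 gene lists in each animal relative to the mean of 10, with the number of measured members in brackets and the age in months under each animal; red is above and blue below the mean. The interferon score is 2.15 in EV-F9 and at most 0.13 elsewhere, and the glucocorticoid score is above 1 in EV-F7, EV-F8 and EV-F9 and below 0 in the other 7.

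Interferon-stimulated genes gave the most extreme values of the set, all in 1 animal. Interferons signal from receptors at the cell surface to genes whose products restrict viruses and intracellular microbes and raise antigen presentation. Of 48 genes listed 46 reached a mean of 1 CPM, and all 46 were variable. That mean counts EV-F9, so a member can have reached 1 CPM through this animal alone. Of the 46 members 45 were highest in EV-F9, and the score was 2.15 in EV-F9 against -0.60 to 0.13 in the other 9. The summed level of the list was 4022 CPM in EV-F9 and 329.4 to 529 CPM in the other 9.

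Irgm2, a GTPase that controls vacuoles of intracellular microbes, stood at 853.5 CPM in EV-F9 and at 15.6 to 38.5 CPM elsewhere, with a median of 30.9 CPM over all 10. Its neighbour and relative Igtp stood at 479 CPM in EV-F9 and at 14.5 to 27.9 CPM elsewhere. In both genes EV-F9 was far from the other 9, which overlapped regardless of sex and age. Further GTPases of the same families followed, with Iigp1 at 712 CPM in EV-F9 against 7.62 to 22.8 CPM and the predicted gene Gm4841 at 2965 CPM against 12.5 to 70.7 CPM. Irgm1 stood at 279 CPM against 19.1 to 29.9 CPM. These GTPases have close relatives in the genome, and the sources used here do not say how reads that fit several of them were divided. Ifit1, which binds viral RNA, was at 46.8 CPM in EV-F9 and at 3.19 to 11.1 CPM elsewhere.

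The interferon-stimulated response element is the best known DNA sequence through which these genes are induced, and the 200 bases before the annotated start were searched on both strands for its core, which reads GAAA, any 2 bases, GAAA. Of 33 list members with a window 17 (51.5%) held it, against 716 of 27025 genes (2.65%). Of the members described above, Irgm2, Igtp, Irgm1 and Ifit1 are among the 17, and Iigp1 and Gm4841 are not. Only 33 of the 48 listed genes had a window, so this does not show that Iigp1 or Gm4841 lacks the core. The windows of Irgm2, Igtp, Irgm1 and Ifit1 are shown 5′ to 3′ on the strand of the gene. They are from RefSeq on build GRCm38.p6, with the matches in capitals. In Irgm2 (chr11:58214777-58214976, plus strand) the match begins 64 bases before the start, in Igtp (chr11:58199356-58199555, plus strand) 34 bases before it, and Irgm1 (chr11:48871421-48871620, minus strand) and Ifit1 (chr19:34640689-34640888, plus strand) hold 2 matches each.
Irgm2: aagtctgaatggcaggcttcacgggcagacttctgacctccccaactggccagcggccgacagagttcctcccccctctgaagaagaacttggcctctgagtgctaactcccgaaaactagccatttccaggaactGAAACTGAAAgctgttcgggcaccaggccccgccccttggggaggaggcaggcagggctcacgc
Igtp: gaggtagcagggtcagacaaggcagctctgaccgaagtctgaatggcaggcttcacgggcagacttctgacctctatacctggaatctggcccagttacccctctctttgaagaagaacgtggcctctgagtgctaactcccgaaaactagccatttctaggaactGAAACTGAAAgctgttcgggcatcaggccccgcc
Irgm1: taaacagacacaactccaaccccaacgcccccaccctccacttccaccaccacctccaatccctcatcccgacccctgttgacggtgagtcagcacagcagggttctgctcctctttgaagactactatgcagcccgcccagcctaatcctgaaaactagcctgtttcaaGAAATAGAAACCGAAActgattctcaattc
Ifit1: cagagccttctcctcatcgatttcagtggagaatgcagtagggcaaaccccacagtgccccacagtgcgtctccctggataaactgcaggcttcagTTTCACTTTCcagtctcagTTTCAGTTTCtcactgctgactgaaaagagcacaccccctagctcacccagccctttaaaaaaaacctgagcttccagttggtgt
A match is a description of these letters and does not show that a factor binds there.

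The presentation machinery of MHC class I, which displays peptides of cytosolic proteins and is raised by interferon, showed the same animal. All 18 measured genes were variable, all 18 were highest in EV-F9, and the score was 1.51 there against -0.40 to 0.16 elsewhere. H2-K1, a class I heavy chain, was at 664 CPM in EV-F9 and at 114 to 172 CPM in the other 9. Class I genes are close copies of each other, so the split of reads between them is uncertain. B2m, the light chain they share, has no such copy and stood at 463 CPM against 94.6 to 152 CPM. Tap1, a subunit of the peptide pump of the endoplasmic reticulum, stood at 73.8 CPM against 5.69 to 14.9 CPM. The same core occurs in the 200 bases of 3 of 16 genes of this list (18.8%), among them B2m (chr2:122147487-122147686, plus strand), where it begins 139 bases before the start.
B2m: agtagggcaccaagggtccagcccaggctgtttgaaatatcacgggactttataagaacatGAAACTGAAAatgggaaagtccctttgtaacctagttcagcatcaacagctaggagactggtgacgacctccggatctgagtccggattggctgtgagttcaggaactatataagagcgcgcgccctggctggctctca
B2m is shown because it has no close copy on the list.

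Without EV-F9 13 of the 46 interferon members and 3 of the 18 class I members were variable, and Irgm2 went from 29.2 to 2.58 times the trend. The filter of 1 CPM was applied again to the animals left, and a member under it counted as not variable. Part of the fall can thus come from the filter, and the number of members still measured is not reported here. MHC class II genes, which mark antigen-presenting cells, were variable in 4 of 5 members and highest in EV-F9 in all 5, but a second animal was high as well. Cd74, the class II invariant chain, stood at 125 CPM in EV-F9, 106 CPM in EV-M7, 76.8 CPM in EV-M11 and 38.1 to 55.5 CPM in the other 7. Macrophage markers split differently, with 15 of 21 variable, 14 highest in EV-M7 and 11 lowest in EV-M8. Their summed level was 342.4 CPM in EV-M7, 263.1 CPM in EV-F9 and 123.4 to 218.9 CPM in the other 8. Lyz2, the lysozyme of macrophages, was at 80.4 CPM in EV-M7, 54.0 CPM in EV-F9 and 28.7 CPM in EV-M8. Lymphocytes were barely seen, since 2 of 21 T and NK cell markers and 2 of 24 B and plasma cell markers reached 1 CPM. Summed over each whole list, with the members under 1 CPM, levels were 3.76 to 11.9 CPM and 6.36 to 15.2 CPM. The T and NK sum was highest in EV-F9, at 11.9 CPM against 3.76 to 9.44 CPM. The 2 measured T and NK markers were instead highest in EV-F11 and EV-M8, and their score was -0.11 in EV-F9. The part of any cell type in the interferon values was not tested.

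Immediate-early genes, transcription factors and feedback regulators that are induced within minutes by contraction, stretch, injury or hormones, were high in EV-F7 and EV-F8. Of 28 measured members 27 were variable, 22 were highest in EV-F7 and 4 in EV-F8, and the scores were 1.82 and 1.13 in these 2 animals against -0.61 to 0.09 in the other 8. Fos, a subunit of the AP-1 factor, was at 337 CPM in EV-F7, 79.1 CPM in EV-F8 and 2.89 to 18.6 CPM in the other 8. Junb, its partner, was at 410.1 CPM in EV-F7 and 82.8 CPM in EV-F9, with 52.6 CPM in EV-F8 and 12.0 to 30.6 CPM in the others. For both genes EV-F10 and EV-F11 lay within or next to the range of the males. Nr4a1, a nuclear receptor induced by adrenergic signals in muscle, was at 1060 CPM in EV-F7, 643 CPM in EV-F8 and 73.8 to 218 CPM elsewhere. Sik1, a kinase induced through cyclic AMP, was at 342 and 242 CPM in the same 2 animals and at 16.1 to 67.8 CPM elsewhere. Without EV-F7, EV-F8 and EV-F9 18 of the 27 were still variable.

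The cyclic AMP response element TGACGTCA is 1 of several sequences that drive such genes. It was found on either strand in the 200 bases of 3 of 21 members with a window (14.3%), against 457 of 27025 genes (1.69%). Btg2, which slows the cell cycle, and the phosphatase Dusp1 are shown, with the element beginning 166 and 143 bases before the start. Btg2 (chr1:134079156-134079355, minus strand) was at 401 CPM in EV-F7, 208 CPM in EV-F8 and 24.8 to 94.2 CPM elsewhere. Dusp1 (chr17:26508473-26508672, minus strand) was at 234 CPM in EV-F7 and 37.4 to 110 CPM elsewhere.
Btg2: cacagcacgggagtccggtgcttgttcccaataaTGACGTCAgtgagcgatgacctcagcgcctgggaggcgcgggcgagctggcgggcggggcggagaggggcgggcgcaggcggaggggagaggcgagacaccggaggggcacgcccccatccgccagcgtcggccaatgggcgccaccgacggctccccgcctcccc
Dusp1: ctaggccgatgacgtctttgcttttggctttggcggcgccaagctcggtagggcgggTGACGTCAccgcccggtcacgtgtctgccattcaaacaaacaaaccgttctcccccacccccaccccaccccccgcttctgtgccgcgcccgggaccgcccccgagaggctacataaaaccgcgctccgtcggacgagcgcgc
In Dusp1 EV-F11 came second and EV-F8, high for Fos and Nr4a1, was at 67.0 CPM.

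Glucocorticoid-induced genes were high in EV-F7, EV-F8 and EV-F9 together. Glucocorticoids are adrenal hormones of stress and fasting that act on muscle through a nuclear receptor and turn on genes of protein breakdown, metal binding and fuel switching. Of 24 measured members 23 were variable and 18 were highest in EV-F8. The scores of the 3 animals were 1.04, 1.52 and 1.09, and the other 7 ran from -1.14 (EV-M11) to -0.18 (EV-F11). In 19 of 24 members all 3 of these animals were above the other 7, against 573 of 12120 genes (4.73%), and in 0 members all 3 were below, against 580 genes (4.79%). These 3 are the 23-month females, but they were set against the rest after their values had been seen, so the counts are a description.

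The metallothionein Mt2, a zinc-binding protein, was at 179, 327 and 276 CPM in EV-F7, EV-F8 and EV-F9, at 5.35 and 5.83 CPM in EV-F10 and EV-F11, and at 6.07 to 19.6 CPM in the 5 males. Mt1 followed it, at 169, 261 and 204 CPM against 9.48 to 29.6 CPM in the other 7. Both thus separated the 3 animals from the 7 with no overlap. Ddit4, an inhibitor of mTOR signalling, was at 376, 519 and 136 CPM in the 3 animals and at 10.6 to 34.3 CPM elsewhere. Foxo1, a driver of muscle breakdown, was at 170, 283 and 154 CPM against 30.9 to 59.9 CPM, and its target Trim63, a ubiquitin ligase of atrophy, at 597, 858 and 430.2 CPM against 214 to 373 CPM. Per1, a clock gene that glucocorticoids induce directly, was at 425, 364 and 256 CPM against 28.4 to 105 CPM. Without the 3 animals 18 of the 23 variable members were still variable.

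**Figure D5:**
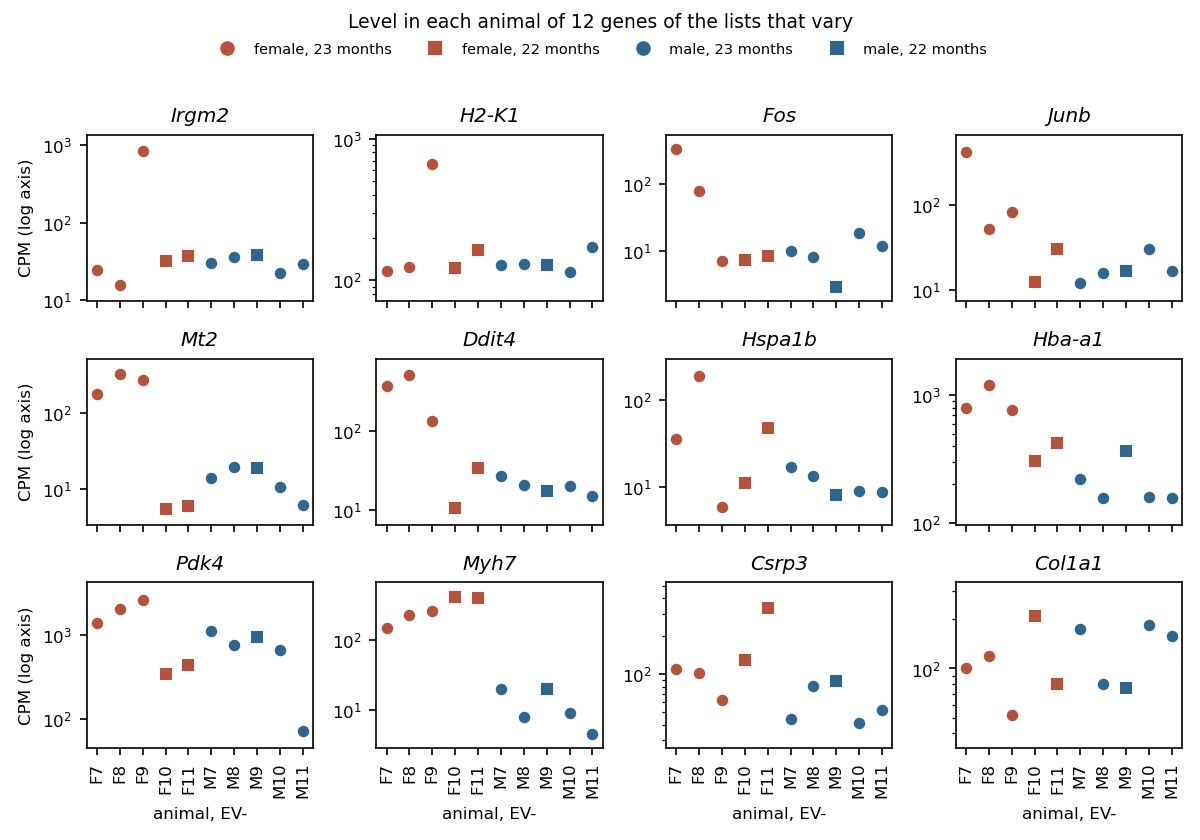
Level of 12 genes in each animal (CPM, log axes whose ranges differ between panels), females in red, males in blue, 23 months as circles and 22 months as squares. Irgm2 and H2-K1 are set apart in EV-F9, Fos in EV-F7 and EV-F8, Mt2, Ddit4 and Hba-a1 are highest in EV-F7, EV-F8 and EV-F9, and Myh7 is higher in all 5 females than in all 5 males.

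Genes of fasting and lipid oxidation, which share Angptl4, Foxo1 and Pdk4 with the glucocorticoid list, were variable in 16 of 24 members and were lowest in EV-M11 in 13. Pdk4, the kinase that turns off glucose oxidation, was at 1393, 2044 and 2648 CPM in EV-F7, EV-F8 and EV-F9 and at 72.4 CPM in EV-M11, with 349 to 1109 CPM in the other 6. Ucp3, a mitochondrial carrier raised by fasting, was at 137 to 995 CPM in 9 animals and at 59.2 CPM in EV-M11. Slc25a25, an ATP and phosphate carrier of mitochondria, went with the immediate-early genes instead, at 769 and 611 CPM in EV-F7 and EV-F8, 169 CPM in EV-F9 and 21.6 to 76.8 CPM elsewhere.

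Red-cell transcripts separated the same 3 females. All 4 measured globin genes were variable, and in all 4 EV-F7, EV-F8 and EV-F9 were above the other 7, against 4.73% of all genes. Hba-a1, the haemoglobin alpha chain, was at 789, 1209 and 771 CPM in them, 303 and 420.1 CPM in EV-F10 and EV-F11, and 155 to 363 CPM in the males. Hba-a1 and Hba-a2 are near-identical copies, as are Hbb-b1 and Beta-s, and their separate values are uncertain. Alas2, the red-cell enzyme of haem synthesis, has no such copy and was at 56.5, 90.1 and 61.7 CPM against 5.67 to 25.2 CPM. Of 19 erythroid markers 10 were measured and 7 were variable, and their summed level was 2580 to 3755 CPM in the 3 animals and 878.4 to 1533 CPM in the other 7. The part of residual blood in the other values of these animals was not tested, and their age, their sex and any other feature they share cannot be told apart.

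The denervation-response list, genes that rise when a fibre loses its nerve, also scored highest in EV-F9 (0.82), EV-F8 (0.64) and EV-F7 (0.43), against -0.41 to -0.07 in the other 7. It shares Cdkn1a, Fbxo32, Mt1, Mt2 and Trim63 with the glucocorticoid list. Of 28 members 18 were variable, and 10 of these were still variable without the 3 animals. In 10 members all 3 animals were above the other 7, against 4.73% of all genes, and in 1 all 3 were below, against 4.79%. Myog, a myogenic factor that denervation induces, was at 24.6, 21.3 and 16.9 CPM in them, 5.50 and 11.8 CPM in EV-F10 and EV-F11 and 2.62 to 4.44 CPM in the males. Runx1, a transcription factor of denervated muscle, was set apart in EV-F9 alone, at 27.7 CPM against 3.53 to 8.53 CPM. Chrna1, the receptor subunit at the synapse, was at 63.8 CPM in EV-F9 and at 29.7 to 43.3 CPM in the other 9. Of 21 neuromuscular-junction genes 2 were variable (9.52%), near the share of all genes, and 8 of the 21 were highest in EV-F9. The junction list shares Chrna1, Chrnb1, Chrnd, Chrne and Musk with the denervation list, so the 2 lists are not separate. Schwann cell and myelin genes had 3 of 21 variable members (14.3%), near the share of all genes. In 6 of the 21 all 3 of the 23-month females were above the other 7, against 4.73% of all genes. Leaving out these females gave 0 variable members, and with so few to start from nothing is read from that count. The Schwann cell list shares Egr2 with the immediate-early list.

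Heat-shock genes had their highest scores in EV-F8 and EV-F11. Of 20 inducible members 10 were variable, and the scores were 0.51 in EV-F8 and 0.47 in EV-F11 against -0.24 to 0.20 in the other 8. Single members were highest in EV-F11 (7 of 20), EV-F8 (6) or EV-M10 (7), whose score was near 0. Hspa1b, an inducible HSP70 chaperone, was at 187 CPM in EV-F8, 47.0 CPM in EV-F11, 35.0 CPM in EV-F7 and 5.83 to 16.7 CPM in the other 7. Hspa1a, a near-identical copy whose reads cannot be told from those of Hspa1b with what is known here, was at 115 CPM in EV-F8 and 41.7 CPM in EV-F11. Dnajb1, the partner of HSP70, has no such copy and was at 60.0 CPM in EV-F8, 23.7 CPM in EV-F7 and 8.30 to 11.8 CPM in the others. Of 26 constitutive and inducible chaperones, a list that shares 16 genes with the former, 12 were variable.

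Clock genes, which cycle over the day, were variable in 14 of 19 members. Per2 was at 3.70 CPM in EV-F10 and 3.31 CPM in EV-M10 and at 13.9 to 38.5 CPM in the other 8. Arntl, which acts in the opposite phase, was highest in these same 2 animals, at 60.1 and 49.9 CPM against 17.3 to 37.7 CPM. The 2 genes thus ranked the 2 animals at opposite ends, whatever their sex. Dbp, an output factor of the clock, was lowest in EV-F10 at 44.7 CPM, with 89.2 to 163 CPM in the other 9, and Nr1d1 was highest in EV-M10 at 423 CPM, with 112 to 306 CPM elsewhere. Collection time is not given in the labels.

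Matrix and tendon genes formed another axis. Of 33 collagen and matrix genes 25 were variable, as were 15 of 19 fibroblast and fibro-adipogenic progenitor markers and 14 of 18 tendon markers. These counts are not separate, since the matrix list shares 6 genes with the fibroblast list and 4 with the tendon list. The tendon list also holds the immediate-early gene Egr1. Col1a1, the main fibrillar collagen, was at 211 CPM in EV-F10 and at 175, 186 and 159 CPM in EV-M7, EV-M10 and EV-M11, and at 51.8 CPM in EV-F9 as the lowest. Col3a1 ran from 45.1 CPM in EV-F9 to 183 CPM in EV-M10. The collagens thus had high and low animals in both sexes. Tenomodulin (Tnmd), a marker of tendon cells, was at 20.3 CPM in EV-F10 and 5.11 CPM in EV-F11, and Fmod, a proteoglycan of tendon, at 680 CPM and 219 CPM in the same pair. In all, 12 of the 18 tendon markers were lowest in EV-F11 and 9 highest in EV-F10. Bone and cartilage markers had 3 of 5 measured members variable and keratinocyte and hair markers 1 of 4.

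Adipocyte genes were variable in 16 of 19 members and 12 were highest in EV-F9, which left 10 variable without that animal. The score of the list was 0.07 to 0.60 in females and -0.41 to -0.10 in males. Of 21 members tested for sex 2 were called lower in males and 0 higher, against 0.368% and 0.518% of all genes. Scd1, a desaturase of fat synthesis, was at 94.5 CPM in EV-F9 and 15.6 to 52.7 CPM elsewhere, whereas Adipoq, the adiponectin gene made by fat cells alone, reached 5.76 CPM in EV-F9 and 1.36 to 5.30 CPM in the other 9. Sterol and fatty acid synthesis had 10 of 24 variable members, and 6 without EV-F9. Endothelial genes had 11 of 20 variable members, among them the VEGF receptor Kdr at 43.4, 24.99 and 29.7 CPM in EV-F7, EV-F8 and EV-F9 and 48.0 to 95.2 CPM in the other 7. In 7 of these 20 genes the 3 animals were below the other 7, against 4.79% of all genes, and in 1 they were above, against 4.73%. Leaving out the 3 animals gave 6 variable endothelial members. Smooth muscle and pericyte genes had 2 of 18 variable members (11.1%), near the share of all genes. Of 10 neutrophil and mast cell markers 5 were variable, and of 3 neuronal markers 1.

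Within the fibre the fast myosins differed in their proportions between animals. Of 20 fast-fibre genes 3 were variable (15%), near the share over all genes, and the list's scores ran from -0.06 to 0.10. Myh2, the myosin of type IIA fibres, ran from 1353 CPM in EV-M7 through a median of 2587 CPM to 6393 CPM in EV-F11, with EV-M9 second at 4537 CPM. Myh1 was highest in EV-F9 (12033 CPM), EV-M9 (11126 CPM) and EV-F11 (10332 CPM), and these 3 animals had the lowest Myh4 (20346, 18975 and 21381 CPM). Animals high in IIA and IIX myosin were thus low in IIB myosin. The myosin heavy chains are similar in sequence and lie side by side in the genome, and the sources used here do not say how shared reads were divided.

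Many mitochondrial genes were highest in the same few animals. Of 78 nuclear genes of oxidative phosphorylation 0 were variable, and 64 of the 78 were highest in EV-M9, and the scores were 0.26 in EV-M9, 0.18 in EV-F11 and 0.14 in EV-M8 against -0.12 to 0.01 in the other 7. Of 42 genes of the citrate cycle and fatty acid oxidation 19 were variable, and 14, 13 and 11 of the 42 were highest in EV-F11, EV-M9 and EV-M8. Myoglobin (Mb), the oxygen store, was at 4324, 4113 and 3543 CPM in EV-M9, EV-F11 and EV-M8 and at 2400 to 3052 CPM in the other 7. EV-M9 and EV-F11 were thus high for Myh2, Mb and the mitochondrial genes alike.

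Glycolysis had 8 of 30 variable members and calcium handling 5 of 28. Ribosomal proteins had 1 of 78, translation factors 1 of 26 and the proteasome with ubiquitin 2 of 37, all under the share over all genes. Z-disc genes had 11 of 25, with 16 of the 25 highest in EV-F11. Csrp3, a stretch-responsive protein of the Z-disc, was at 336 CPM in EV-F11 and at 41.5 to 131 CPM elsewhere, and the mechanosensitive Ankrd2 at 455 CPM against 49.2 to 209 CPM. Xirp1, which gathers at sites of myofibril damage, was at 1120 CPM in EV-F11 and 881 CPM in EV-F8, with 164 to 639 CPM elsewhere. Regeneration genes had 10 of 20 variable members, imprinted growth genes 6 of 14, ATF4 targets 4 of 18 and cell-cycle genes 2 of 11. H19, an imprinted RNA of growing muscle, was at 1175 CPM in EV-F11 and 929 CPM in EV-F9, with 152 to 483 CPM in the other 8.

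Sex is the labelled factor within the group, and the question was which genes differed between the 5 males and the 5 females. With edgeR 69 of 13331 genes were higher in males (0.518%) and 49 were lower (0.368%) at an adjusted p under 0.05, and 17 of the 118 lay on the X or Y chromosome (1892 genes had an unadjusted p under 0.05). Of the 1492 variable genes 83 (5.56%) were called, against 0.273% of the others. The median share of a gene's variance that lay between the sexes was 17.8% in variable genes and 10.6% over all genes. For most variable genes the larger part of the spread was therefore between animals of the same sex.

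Part of the slow-fibre list was lower in males. Its score ran from 0.24 to 1.08 in females and from -0.87 to -0.15 in males. The summed level of the list overlapped between the sexes, with 9307 CPM in EV-M9 and 7220 CPM in EV-M8 against 6237 CPM in EV-F7. Of 20 members 16 were variable, 8 were called lower in males and 0 higher, where 0.368% and 0.518% of all genes were. Myh7, the slow myosin heavy chain, was at 145, 222, 258, 406 and 384 CPM in EV-F7 to EV-F11 and at 19.9, 8.02, 19.8, 9.20 and 4.63 CPM in EV-M7 to EV-M11 (log2 fold change male over female -4.52 ± 0.50, edgeR adjusted p = 0.00295). The sexes did not overlap, and the 2 females of 22 months were the highest. Slow troponin I (Tnni1) ran from 36.6 to 72.5 CPM in females and from 4.36 to 8.61 CPM in males (-3.13 ± 0.25, edgeR adjusted p = 0.00011). Slow troponin T (Tnnt1) ran from 68.9 to 142 CPM and from 16.6 to 25.7 CPM (-2.46 ± 0.20, edgeR adjusted p = 0.000129). The slow calcium pump Atp2a2 averaged 230.8 ± 70.5 CPM in females and 67.0 ± 4.72 CPM in males (SD, n = 5 each; -1.78 ± 0.19, edgeR adjusted p = 0.00105). Tnnc1, Myl3, Tpm3 and Myl2, slow or slow and cardiac isoforms of the same filaments, were the other members that fell, by 2.77, 3.10, 0.94 and 2.53 on the log2 scale. Without the 3 females of 23 months 7 of the 20 were called lower, and Myl2 was no longer called (-2.94, edgeR adjusted p = 0.0903). Myl2 also lost its call when EV-F9, EV-M7, EV-M8, EV-M10 or EV-M11 was left out alone (edgeR adjusted p = 0.0563 to 0.0801).

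Of 20 fast-fibre genes 0 were called in either direction, and with 0.518% and 0.368% of all genes called nothing is read from that count. Myh4 was at 0.09 ± 0.13 (edgeR adjusted p = 0.798). Slow-fibre genes held at most 1.15% of any library, so the large folds concern a small part of the muscle's RNA. Mybph, a myosin-binding protein, averaged 167 ± 39.1 CPM in females and 46.0 ± 19.1 CPM in males (-1.86 ± 0.32, edgeR adjusted p = 0.0309). Myog fell in males by 2.13 ± 0.36 on the log2 scale (edgeR adjusted p = 0.0228), with its levels given above. Without EV-F7, EV-F8 and EV-F9, which leaves 2 females, neither passed in edgeR, with Mybph at -1.92 (adjusted p = 0.28) and Myog at -1.23 (adjusted p = 0.233). Both calls were fragile, and of 19 alternative settings 9 called each gene. Mybph lost its call without EV-F7, EV-F8, EV-F9, EV-M9, EV-M10 or EV-M11 alone (edgeR adjusted p = 0.0521 to 0.0913). Myog lost it without EV-F7, EV-F8, EV-F9, EV-M7, EV-M8, EV-M10 or EV-M11 alone (0.0518 to 0.0867).

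On the higher side in males, outside the Y chromosome, stood Actr3b, a relative of the actin nucleator Arp3, at 2.62 to 5.06 CPM in females and 22.9 to 27.4 CPM in males (2.71 ± 0.17, edgeR adjusted p = 3.66e-06). Slc15a5, a member of a peptide transporter family, was at 0.129 to 0.299 CPM in females, near the level of 3 counts, and at 6.63 to 13.3 CPM in males. Mgst1, a membrane glutathione transferase, averaged 12.1 ± 1.61 CPM in females and 36.3 ± 3.86 CPM in males (1.58 ± 0.10, edgeR adjusted p = 6.56e-06). Cbr2, a carbonyl reductase, rose by 1.52 ± 0.14. These 4 genes kept their calls without the 23-month females.

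Amd1 makes the decarboxylated donor for polyamine synthesis, a pathway that androgens regulate in muscle. It was at 157 to 231 CPM in females and 316 to 904 CPM in males (1.77 ± 0.25, edgeR adjusted p = 0.0112), with EV-M9, the 22-month male, the lowest of its sex. Of 12 polyamine genes 4 were variable, and 2 were called, the other being the spermine synthase Sms (0.37 ± 0.08, edgeR adjusted p = 0.0458). Odc1, the first enzyme of the pathway, averaged 118 ± 30.0 CPM in females and 177 ± 44.0 CPM in males without passing (edgeR adjusted p = 0.252). Without the 23-month females neither passed in edgeR, with Amd1 at 1.68 (adjusted p = 0.336) and Sms at 0.40 (adjusted p = 0.265). Sms also lost its call on leaving out any 1 animal other than EV-M9 (edgeR adjusted p = 0.0542 to 0.113) and was called in 7 of 19 alternative settings, against 18 of 19 for Amd1. The energy-buffering list, which also counts Amd1, had 6 of 11 variable members.

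On the lower side in males stood 2 neighbouring imprinted noncoding RNAs of chromosome 12. Meg3 was at 48.9 to 80.6 CPM in females and 20.2 to 23.7 CPM in males (-1.54 ± 0.12, edgeR adjusted p = 2.4e-05), and Rian averaged 34.0 ± 7.20 CPM and 8.86 ± 1.59 CPM (-1.94 ± 0.16, edgeR adjusted p = 7.99e-05). Both ranges were free of overlap and kept their calls without the 23-month females. Thick-filament genes had 10 of 25 variable members and thin-filament genes 7 of 17, and the members called for sex, 5 and 4 of them, were slow or cardiac isoforms apart from Mybph.

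The second question was whether the 3 animals of 22 months differed from the 7 of 23 months, with sex taken into account. edgeR called 0 of 13331 genes higher (0%) and 0 lower (0%) at 23 months, with 1755 genes at an unadjusted p under 0.05, and DESeq2 called 85 higher and 90 lower. Among the smallest p values in edgeR were those of Arhgef15, an endothelial exchange factor (-0.94 ± 0.14), Fabp5, a fatty acid carrier (-1.19 ± 0.18), and Cidec, a lipid droplet protein (0.97 ± 0.17), each with an adjusted p = 0.212. Fabp5 was at 17.6, 14.8 and 10.3 CPM in the 22-month animals EV-M9, EV-F11 and EV-F10 and at 4.28 to 10.3 CPM in the 7 of 23 months, so the ranges met at EV-F10 and EV-M10. Without EV-M9, the only 22-month male, edgeR called 32 genes higher and 39 lower, and that fit takes the age difference from the females alone. With 1 such male and 2 such females, age and what else set these animals apart cannot be told apart.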

How the data were processed

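RNA-seq libraries of 10 empty-vector EDL muscles were analysed, and the other 7 samples of the series were not used here. The deposited table gives estimated counts per gene, which the authors took from reads re-aligned to RefSeq (per the file headers) on build mm10 (per the submitters' processing notes). They are in part fractional (27.1% of values above 0 were whole within 0.001), and stand beside the authors' normalized log2 values. The aligner, the counter and strand use: not given in the sources used here. Overlapping and antisense genes and near-identical copies are therefore uncertain. Counts were rounded for edgeR 4.0.16 (R 4.3.3), scaled by TMM and given as CPM, and the deposited log2 values served as an alternative scaling.

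The spread was the CV over 10 animals at a mean of at least 1 CPM, over a lowess trend (fraction 0.3) of log2 CV on log2 mean. Where animals were left out, this filter was applied to those that remained, and list members under it counted as not variable. Sex and age (with sex as a term) were tested with edgeR's robust quasi-likelihood test over 13331 genes, with Benjamini-Hochberg adjustment at 5%. A log2 fold change is followed by its standard error. DESeq2 1.42.0 and limma 3.58.1, other scalings and filters, a replicate block and leaving out animals were alternatives. The edgeR fit for sex and the call of variable genes were tested on simulated data, and the other procedures were not.

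The members and lists were chosen with earlier results of these data known. The 47 lists held 1062 genes, of which 6 were not matched. Genes were named by rank: the 25 with most counts, the 20 with the largest CV over the trend, the 20 with the largest CV and 10 with the smallest CV at 10 CPM or more, up to 4 extreme, 2 steady and 4 abundant members per list, the 10 smallest p in each direction for sex and the 5 for age, and a panel of marker genes. Arntl, Runx1, Tnmd, Angptl4 and Dusp1 were chosen after their values were seen. A few genes that these rules name are not reported here.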

Additional observations from a re-analysis of the deposited data

Results flagged for a closer look

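Of 89 measures checked for an animal far from the other 9, 9 had one. Chance gives about 1 in 20 for measures picked without the data, but these lists and genes were chosen with earlier results known, so their number is a description and no excess is read from it. The value is the gap between that animal and its nearest neighbour over the whole range, and it had to exceed Dixon's 95% critical value for 10 animals. EV-F9 was the highest animal in 7 of the 9. Its gap was 0.733 for the interferon-stimulated score, 0.705 for the MHC class I and immunoproteasome score, and 0.516 for the neuromuscular-junction score. Among single genes it was 0.777 for Irgm2, 0.816 for Igtp, 0.769 for H2-K1 and 0.633 for Tap1. These members and scores overlap, so the 7 values describe few independent patterns. EV-F8 was highest for the HSP70 partner Dnajb1, with a gap of 0.475, and EV-F10 was lowest for the clock output gene Dbp, with a gap of 0.532.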

How the results depend on the processing

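The shares of the 14 gene classes and of fast- and slow-fibre genes stayed within 1 SD of their values on summing counts over animals and on leaving out each animal, and variable genes numbered 1345 to 1526 leaving out 1 animal and 1295 to 1623 over other scalings, filters and measures of spread. Without EV-F7, EV-F8 and EV-F9, chosen after seeing the data, 1300 were variable and 65.95% of the 1492 were among them. Leaving out EV-F9 gave 13 variable interferon, 3 class I and 10 adipocyte members, with members under 1 CPM in the animals left counted as not variable. Counts of sex calls moved by over 1.5 times: higher and lower in males were 251 and 300 in DESeq2, 115 and 97 in limma-voom with sample quality weights, and 16 and 21 without EV-F7, EV-F8 and EV-F9. Lower calls were 78 with age as a term. Leaving out 1 animal gave 35 (without EV-F7) to 99 higher and 30 (without EV-F7) to 126 (without EV-F10) lower. For age DESeq2 called 85 and 90, leaving out 1 animal gave 0 to 32 higher and 0 to 39 lower (the highest without EV-M9), females alone gave 1 higher and males alone, added after seeing the data, 1 lower. The cause of these differences was not tested. Numbers 7 to 11 occur in both sexes, and the labels used here do not say that they pair animals. The deviations of same-numbered animals correlated at 0.0418, 0.0811, 0.137, 0.148 and -0.0103, and only number 9 correlated best with its own. These values cannot decide whether same-numbered animals share more than a number. With a replicate block 43 genes were higher and 47 lower, and Myh7 was at -4.60 and not called. At this depth genes under about 0.139 CPM (3 counts) could not be told from 0 in the shallowest library.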
